A study of Mus musculus with 46 samples.

Results

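The transient H3.3 peaks were 11262 of the 68394 H3.3 peaks called in Thy-1- cells on day 9 of reprogramming (D9T-), or 16.5% of that list. They were chosen by measured peak positions: each overlapped an H3.3 peak of Thy-1- cells on day 6 (D6T-) by 1 bp or more, and none overlapped an H3.3 peak at either end of the conversion. The ends were day 0 cells (D0), the fibroblast library of the transdifferentiation series (MEF), induced pluripotent stem cells (iPSCs) and ESD3, an embryonic stem cell line of the mouse. Absence from these 4 lists and presence in D6T- and D9T- are therefore the selection itself and not a result.

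Mouse embryonic fibroblasts (MEFs) carrying a GFP tag on Oct4 received retroviral Oct4, Sox2, Klf4 and c-Myc (OSKM), and chromatin was taken on days 0, 3, 6, 9, 12 and 16 and from the finished iPSCs. Cells were sorted by the fibroblast surface protein Thy-1 on days 6 and 9 and by the early pluripotency antigen SSEA-1 on days 12 and 16. Thy-1- and SSEA-1+ cells (D6T-, D9T-, D12S+, D16S+) are the successful route of the study, and Thy-1+ and SSEA-1- cells (D6T+, D9T+, D12S-, D16S-) the unsuccessful route. In the transdifferentiation series MEFs received Scl, Lmo2, Bmi and Runx1 and were collected on day 0 (MEF), on day 4 (D4) and as finished cKit+ and cKit- fractions. All reprogramming libraries after day 0 share the OSKM vectors, every sorted fraction is a mixed population, and each group is 1 library. No spread between replicates can therefore be given, no test was run, and intervals on shares are 95% Wilson intervals that cover counting error only.

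H3.3 is the histone H3 variant that is placed into chromatin outside DNA replication, by the Hira complex mainly at genes and regulatory elements and by Daxx with Atrx mainly at repeats and telomeres. H3 trimethylated at lysine 4 (H3K4me3) marks active and poised promoters, above all those rich in CpG, and is weaker at active enhancers. H3 trimethylated at lysine 36 (H3K36me3) is laid down along transcribed gene bodies. During reprogramming the fibroblast program is shut down before the pluripotency network is established, and intermediate cells can carry chromatin states that belong to neither end.

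The 5 windows of 300 bases printed here, from the mm9 genome, plus strand, each centred on a transient peak, show the kind of sequence these regions hold. Capitals mark CG dinucleotides, the site of DNA methylation and of CpG-rich promoters. Abca1 and the Lin7c neighbour had the highest D9T- H3.3 scores, Hoxa7 and the Irx5 neighbour had among the highest D9T- H3K4me3 scores, and St3gal6 held H3K4me3 at D6T- and D9T- and in no other H3K4me3 library.
Abca1 intron, chr4:53163244-53163543: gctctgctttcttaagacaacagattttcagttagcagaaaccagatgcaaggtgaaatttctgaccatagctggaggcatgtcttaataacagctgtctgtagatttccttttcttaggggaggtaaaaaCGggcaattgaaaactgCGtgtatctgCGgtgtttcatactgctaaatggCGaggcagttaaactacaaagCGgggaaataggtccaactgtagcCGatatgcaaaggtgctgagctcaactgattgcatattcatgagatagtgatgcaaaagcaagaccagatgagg
near Lin7c, chr2:109700935-109701234: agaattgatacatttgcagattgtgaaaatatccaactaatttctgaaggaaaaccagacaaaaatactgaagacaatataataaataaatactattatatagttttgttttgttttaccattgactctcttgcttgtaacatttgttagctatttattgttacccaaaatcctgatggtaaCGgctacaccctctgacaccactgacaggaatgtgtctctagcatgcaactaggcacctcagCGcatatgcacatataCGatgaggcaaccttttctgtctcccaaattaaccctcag
Hoxa7 promoter, chr6:52168989-52169288: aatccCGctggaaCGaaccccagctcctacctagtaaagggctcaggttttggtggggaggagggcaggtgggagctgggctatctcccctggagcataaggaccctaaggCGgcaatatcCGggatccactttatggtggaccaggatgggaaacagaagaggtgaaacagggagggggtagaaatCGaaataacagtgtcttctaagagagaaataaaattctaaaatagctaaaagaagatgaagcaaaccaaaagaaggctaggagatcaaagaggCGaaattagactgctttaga
near Irx5, chr8:94885762-94886061: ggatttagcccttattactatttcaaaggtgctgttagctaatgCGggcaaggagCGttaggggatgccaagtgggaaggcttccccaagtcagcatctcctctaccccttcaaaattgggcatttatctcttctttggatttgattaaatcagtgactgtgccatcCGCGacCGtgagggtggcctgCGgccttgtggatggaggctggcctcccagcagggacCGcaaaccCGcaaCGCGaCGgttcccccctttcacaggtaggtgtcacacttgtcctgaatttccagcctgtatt
St3gal6 intron, chr16:58519847-58520146: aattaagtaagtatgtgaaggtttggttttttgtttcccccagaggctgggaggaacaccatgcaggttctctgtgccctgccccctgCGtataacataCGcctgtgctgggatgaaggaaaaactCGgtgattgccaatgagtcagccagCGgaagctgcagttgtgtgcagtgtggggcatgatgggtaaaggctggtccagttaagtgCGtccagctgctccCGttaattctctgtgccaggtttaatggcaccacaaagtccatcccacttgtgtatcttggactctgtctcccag

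The windows hold 6, 3, 6, 11 and 6 CG dinucleotides in the order printed. Their G+C content is 43.0% in Abca1, 47.7% in Hoxa7, 53.0% near Irx5 and 51.3% in St3gal6, and the window near Lin7c is the most AT-rich of the 5. Over the 11249 transient peaks with such a window the median G+C content was 42.7% (25th to 75th percentile 38.3 to 46.7%) and the median number of CG dinucleotides was 2.00. All D9T- peaks had medians of 44.7% and 3.00, and the peaks shared with both ends 47.0% and 4.00. Transient peaks were thus the most AT-rich of the 4 groups that D9T- and D6T- share, and 0.480% of their windows were over 60% G+C, compared with 2.32% of all windows. D9T- peaks absent from D6T- and from the lists of the ends were much alike, with medians of 43.0% and 2.00 and 0.591% of windows over 60% G+C.

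Short factor motifs were searched on both strands of the same windows. The octamer ATGCAAAT, bound by Oct4, was in 2.90% of transient windows (2.60 to 3.22%) and 2.19% of all D9T- windows. The Sox motif CATTGTT was in 7.18% (6.72 to 7.67%) and 5.43%. The AP-1 motif TGANTCA, which fibroblast enhancers commonly carry, was in 10.6% of both, whereas the peaks shared with D0 or MEF alone held it in 14.6% (13.9 to 15.3%). The Klf motif CCCCACCC was in 4.52% and 5.50%. Base composition moves with these shares: among windows of 40 to 45% G+C the octamer was in 2.58% (2.11 to 3.15%) against 2.39% of all, a difference within counting error, Sox in 7.28% (6.48 to 8.18%) against 6.00%, AP-1 in 11.5% against 11.2%, and Klf in 3.73% (3.15 to 4.40%) against 3.29%, the opposite order to that over all windows. Among the remaining motifs, the motif AGATAA of Gata factors was in 18.2% against 16.4%, NF-Y CCAAT in 35.0% against 32.7% and Runx TGTGGTT in 8.44% against 7.88%. Lower shares than in all D9T- windows were found for the Snail and Zeb E-box CAGGTG (18.2% against 20.2%), the Myc E-box CACGTG (3.48% against 3.98%), Ets CCGGAAG (0.845% against 1.56%) and the CTCF core AGGGGGC (2.38% against 3.40%). TEAD GGAATG (15.4% against 15.8%), Esrrb AAGGTCA (5.50% against 5.60%) and Grhl AACNGGTT (2.11% against 2.30%) differed least. In the windows of 40 to 45% G+C none of these differences exceeded the counting interval of the transient share. There AGATAA was in 18.3% against 18.5%, CCAAT in 34.7% of both and TGTGGTT in 8.97% against 8.84%, and CAGGTG (18.4% against 17.9%) and CACGTG (3.73% against 3.58%) were no longer lower. Motifs were counted separately even where their letters overlap. A match is a run of letters and not a bound site.

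Most transient peaks were short and modest. The score of a peak is its number of ChIP tags per 10000000 tags of the library. The median transient peak was 0.762 kb long with a score of 10.0 and a fold over input of 3.35, close to the 0.785 kb and 10.7 of all D9T- peaks, and 32.1% had the smallest length the caller reports, 500 bp. The upper tail was cut: the 90th percentile of length was 1.96 kb against 2.94 kb for all, and the highest score was 211 against 1648. Together the regions covered 11.7 Mb. The D6T- peak covered a median of 79.0% of the transient peak and all of it in 3476 cases (30.9%), and less than 50% of it in 2854 cases (25.3%).

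The word transient refers only to called peaks. The tag limits in the file headers came to 6.31 tags per 10000000 at D0, 5.14 in MEF, 5.35 in iPSCs and 6.48 in ESD3, although some listed peaks score slightly below such a limit. In D9T-, 10% of the transient peaks scored 6.02 or less, so a list of peaks cannot show whether weaker signal was present at the ends. The nearest peak of the 4 end lists was a median of 2.31 kb away. It lay within 1 kb of 3654 transient peaks (32.4%), within 100 bp of 542, and more than 10 kb from 2509 (22.3%). Just outside the rule, 677 peaks shared by D9T- and D6T- had no more than 100 bp covered by an end list.

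Transient peaks were seldom at promoters. With protein-coding genes of GENCODE vM1, 260 had their midpoint between 1000 bp upstream and 100 bp downstream of a transcript start, 2.31% (2.05 to 2.60%) against 6.91% of all D9T- peaks. Introns held 58.7% (57.8 to 59.6%) and intergenic sequence 32.3% (31.5 to 33.2%), compared with 54.4% and 29.4% of all. The share within genes, 65.2% (64.3 to 66.0%), was near the 64.4% of all D9T- peaks, and which of these was higher changed with the peak selection. The median distance to the nearest transcript start was 22.1 kb against 13.6 kb. D9T- peaks absent from D6T- and the end lists were alike in this, with 2.66% at promoters and a median distance of 21.7 kb.

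H3K4me3 was measured in separate immunoprecipitates and was not used to choose the peaks, although at each time-point it was called against the same input library as H3.3. At the transient peaks it was most frequent in the same intermediate cells and rare on either side of them. H3K4me3 peaks overlapped 6.46% of transient peaks at D0 (6.02 to 6.93%), 8.60% at D3, 26.0% at D6T- (25.2 to 26.9%), 17.6% at D9T- (16.9 to 18.3%), 5.94% at D12S+, 2.29% at D16S+ and 4.13% in iPSCs (3.78 to 4.51%). The same shares over all D9T- peaks were 27.1%, 23.3%, 33.7%, 29.4%, 20.9%, 11.4% and 21.7%. Transient peaks were therefore below the list as a whole in all 7 libraries. As a ratio to the share of all peaks they were nearest at D6T- (0.772) and farthest in iPSCs (0.191), with D16S+ next, and in percentage points the gap was widest at D0. Among H3.3 peaks of at least 4-fold over input, however, 1258 met the rule and had H3K4me3 at D6T- in 25.2%, against 24.7% of all such peaks. Peaks shared with D0 or MEF alone had 28.7% at D0 and 8.17% in iPSCs, and those shared with iPSCs or ESD3 alone 18.7% and 28.2%. D9T- peaks absent from D6T- and the end lists had 7.29% at D0, 11.4% at D6T-, 11.6% at D9T- and 4.48% in iPSCs. The low shares at D0 and in iPSCs were thus not particular to the transient peaks.

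**Figure D1:**
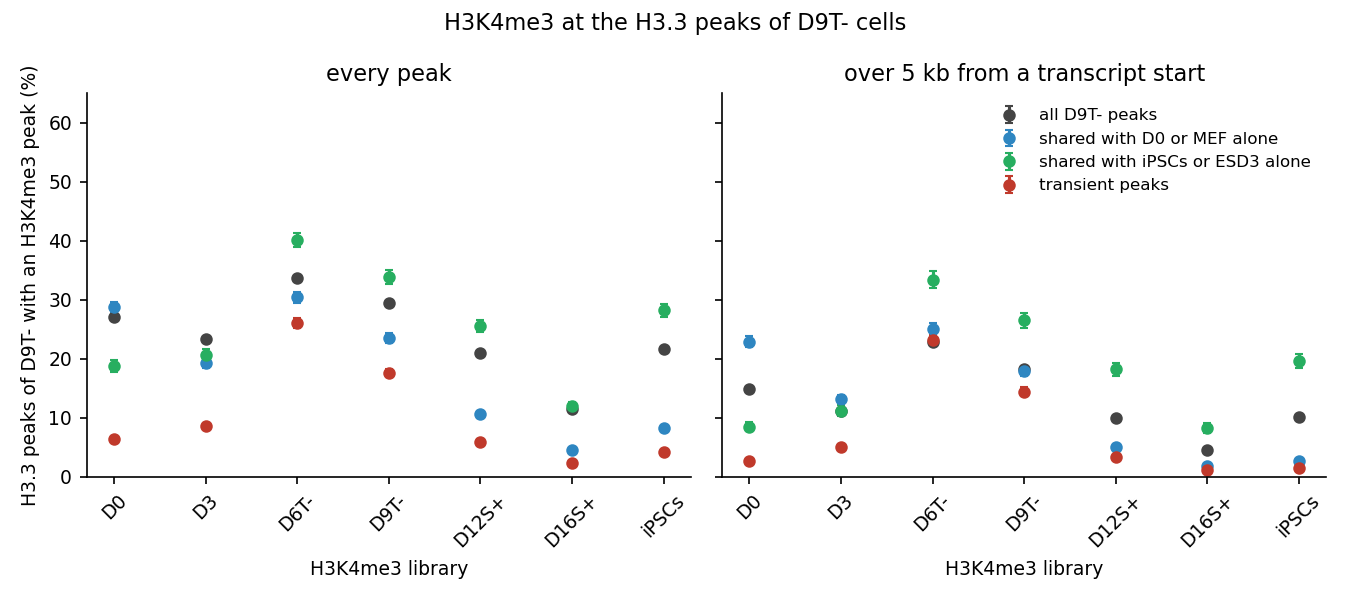
Share of the H3.3 peaks of D9T- (y axis, %) that overlap an H3K4me3 peak in each of 7 libraries (x axis), for all peaks and for those over 5 kb from a transcript start, with points for 4 sets of peaks and bars for 95% Wilson intervals. The red points of the transient peaks are at 26.0% at D6T- and at or under 8.60% in D0, D3, D12S+, D16S+ and iPSCs.

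The same course was seen away from promoters, in a split that was chosen after the data were seen. Of the transient peaks, 9277 lay over 5 kb from a transcript start. Among these, H3K4me3 was present at 2.60% at D0 (2.29 to 2.94%), 5.06% at D3, 23.2% at D6T- (22.4 to 24.1%), 14.4% at D9T- (13.7 to 15.2%), 3.31% at D12S+, 1.08% at D16S+ and 1.39% in iPSCs (1.17 to 1.65%). The 48765 D9T- peaks of such positions had 14.9%, 11.1%, 22.9%, 18.3%, 9.93%, 4.53% and 10.1%. With the lists as deposited, the share at D6T- was thus close to that of distal D9T- peaks in general, while at D0 and in iPSCs it was lower. Distal D9T- peaks absent from D6T- and the end lists were also low at D0 and in iPSCs, at 2.97% and 1.52%. The lists differ in length and in the share of tags within peaks, which for H3K4me3 ranged from 3.71% at D16S+ to 34.77% at D6T-. With each list held to its 19633 top-scoring peaks the distal shares fell to 0.873%, 1.39%, 4.73%, 3.47%, 1.28%, 1.08% and 0.517%. The same setting gave 6.40%, 5.80%, 8.74%, 7.62%, 5.98%, 4.53% and 5.23% of all distal D9T- peaks. Both courses were highest at D6T- and D9T-, and the transient peaks were below all distal peaks at every time, D6T- included.

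In all, 3480 transient peaks (30.9%) carried H3K4me3 at D6T- or D9T-, and 2751 of these, 79.1% (77.7 to 80.4%), had none at D0 or in iPSCs. Of the 26235 D9T- peaks marked at D6T- or D9T-, 33.2% had none at D0 or in iPSCs. Among the marked D9T- peaks absent from D6T- and the end lists this share was 56.3% (54.0 to 58.6%). Both intermediate libraries marked 1438 transient peaks (12.8% against 24.7% of all), D6T- alone 1494 (13.3% against 9.00%) and D9T- alone 548 (4.87% against 4.65%). The mark was in D6T- and D9T- and in none of the other 5 libraries at 607 (5.39% against 2.43% of all), and in none of the 7 at 7470 (66.3% against 53.4%). The H3K4me3 peaks involved were weak, with a median score of 14.5 at D6T- and 13.2 at D9T-, compared with 24.9 and 26.3 over those lists. At the 260 transient promoters the mark was present in 69.6% at D6T- and 63.5% at D9T-, against 87.8% and 85.2% of all D9T- promoter peaks.

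H3.3 itself was followed into the libraries that the rule did not use. In the unsuccessful fractions, 19.4% of transient peaks had an H3.3 peak at D6T+, 37.3% at D9T+, 65.4% at D12S- (64.5 to 66.3%) and 32.3% at D16S-, compared with 39.7%, 49.2%, 70.6% and 48.5% of all D9T- peaks. At least 1 of these 4 fractions held a peak at 8715, 77.4% (76.6 to 78.1%) against 80.8%, and all 4 at 702 (6.23% against 24.4%). D12S- had the highest share of the 4 for transient and for all D9T- peaks alike. Its list was among the longest, with 87536 peaks and 21.96% of tags within peaks, and without it the share with a peak in an unsuccessful fraction was 57.1% against 68.0%. All D9T- peaks, however, include those absent from D6T-. Of peaks also in D6T-, those shared with D0 or MEF alone had a D12S- peak in 84.2%. Those shared with iPSCs or ESD3 alone had 81.7% and those shared with both ends 95.4%. In at least 1 of the 4 fractions these sets had 90.3 to 98.8%. Transient peaks were lower in both respects. D9T- peaks absent from D6T- and the end lists were lower still, with 33.6% at D12S-.

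Along the successful route the peaks were mostly not called after day 9. D12S+ held 15.4% (14.7 to 16.1%) against 33.9% of all D9T- peaks, and D16S+ 4.56% (4.19 to 4.97%) against 20.9%. All D9T- peaks include those shared with iPSCs or ESD3, and the ones shared with these alone had 49.9% and 32.2%. Peaks shared with D0 or MEF alone had 26.2% and 8.49%, and D9T- peaks absent from D6T- and the end lists 6.08% and 2.93%. Low D16S+ shares were thus common to the sets without an iPSCs or ESD3 peak. On day 12, 5841 transient peaks had a peak in SSEA-1- cells alone, 209 in SSEA-1+ cells alone, 1524 in both and 3688 in neither. As shares these were 51.9%, 1.86%, 13.5% and 32.7%, compared with 39.4%, 2.74%, 31.2% and 26.7% of all D9T- peaks. On day 16 the numbers were 3361, 233, 281 and 7387, and the 29.8% in SSEA-1- cells alone was near the 32.0% of all. Both D12S+ and D16S+ held 194, 1.72% against 15.6%. The SSEA-1+ libraries had fewer peaks, 45922 and 34062, and 6.93% and 4.88% of tags within peaks, and the part of this in the low shares was not tested. With all H3.3 lists held to 34062 peaks, D12S+ held 25.9% of the 6417 peaks that then met the rule against 47.6% of all, and D16S+ 10.7% against 34.0%.

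On day 3, before any sort, 27.3% of transient peaks had an H3.3 peak (26.5 to 28.1%), compared with 43.1% of all. In none of the 7 other reprogramming libraries was a peak called at 2029 transient peaks, and in all 7 at 31. The most frequent pattern with a peak was D12S- alone, at 1576 (14.0%). These patterns were not counted for all D9T- peaks, of which 70.6% had a D12S- peak, so they cannot be called particular to the transient peaks. In the hematopoietic conversion, D4 held 32.2% against 62.4% of all, cKit+ 4.89% against 12.6% and cKit- 4.67% against 11.5%.

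**Figure D2:**
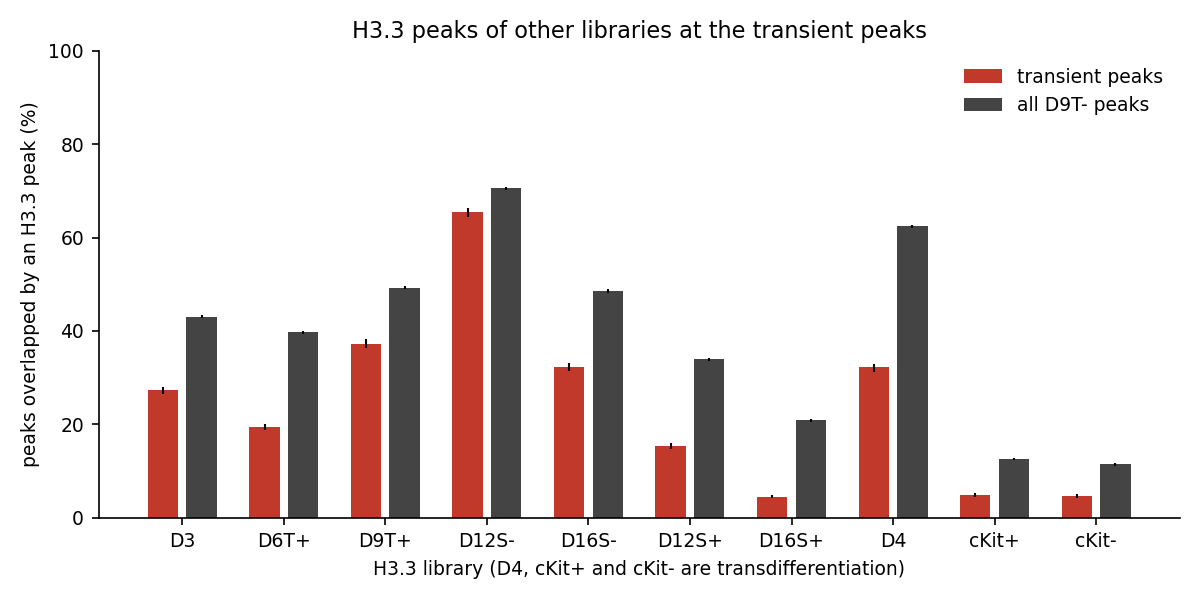
Share of transient peaks (red) and of all D9T- H3.3 peaks (grey) that overlap an H3.3 peak (y axis, %) in each library the rule did not use (x axis), with 95% Wilson intervals. The 2 bars are closest at D12S-, 65.4% and 70.6%, and at D16S+ they are at 4.56% and 20.9%.

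Length moved with most of these shares. Transient peaks of 500 bp or less had a D12S- peak in 46.6% of cases, a D12S+ peak in 7.53% and H3K4me3 at D6T- in 14.2%. The longest, over 2 kb and 1062 in number, had them in 97.3%, 42.4% and 52.8%. H3K4me3 at D9T- went from 8.56% to 38.2%. The rise with length was general: all D9T- peaks of 500 bp or less had these 4 in 44.7%, 12.2%, 15.2% and 13.0%, and those over 2 kb in 99.2%, 78.4%, 66.0% and 58.0%. Short transient peaks were thus slightly above all peaks of that length at D12S- and below them at D12S+. All peaks, however, include those absent from D6T-. Of short peaks also in D6T-, those shared with D0 or MEF alone had a D12S- peak in 67.3%. Those shared with iPSCs or ESD3 alone had 60.2% and those shared with both ends 78.7%. Short transient peaks were the lowest of these sets. At D0, in contrast to all peaks, which went from 14.3% to 49.8%, H3K4me3 at transient peaks was at 5.68 to 7.21% in all 4 length classes, and in iPSCs it was at 3.41 to 5.27%. Peaks shared with iPSCs or ESD3 alone, which also lack a D0 or MEF H3.3 peak, were at 15.1 to 20.4% at D0. Those shared with both ends went from 30.6% to 63.7%, and those shared with D0 or MEF alone rose as well. The small change with length at D0 was thus not particular to the transient peaks. The 100 transient peaks of highest D9T- score, all at 66.4 or more, had an H3.3 peak in D12S- in 100 cases, D9T+ in 99, D16S- in 92, D12S+ in 68, D6T+ and D3 in 59 each and D16S+ in 24. H3K4me3 was at 63 of them at D6T-, 47 at D9T-, 7 at D0 and 4 in iPSCs. Their median length was 4.69 kb, and no share was computed for D9T- peaks of like score. All D9T- peaks over 2 kb had H3.3 peaks in D12S- in 99.2%, D9T+ in 92.2%, D16S- in 91.0% and D12S+ in 78.4%. The shares were 78.4% for D6T+, 81.0% for D3 and 53.8% for D16S+. For H3K4me3 they were 66.0% at D6T-, 58.0% at D9T-, 49.8% at D0 and 44.1% in iPSCs.

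**Figure D3:**
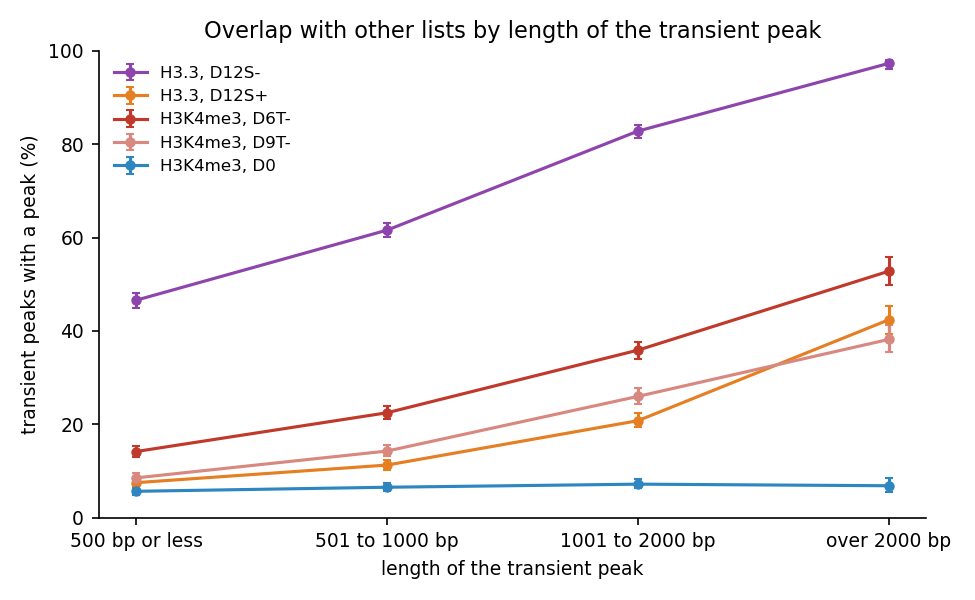
Share of transient peaks (y axis, %) overlapping an H3.3 peak of D12S- or D12S+ or an H3K4me3 peak of D6T-, D9T- or D0, by the length of the transient peak (x axis, 4 classes), with 95% Wilson intervals. Every line rises with length except H3K4me3 at D0, which stays between 5.68% and 7.21%.

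The strongest transient peak was in an intron of Abca1, 9.37 kb from the nearest transcript start. This gene encodes the transporter that exports cholesterol from cells. It spanned chr4:53157594-53169192, 11.6 kb. Its H3.3 score was 13.0 at D3, 178 at D6T-, 211 at D9T-, 25.8 at D12S+ and 6.67 at D16S+. In the unsuccessful fractions it was 21.2 at D6T+, 87.5 at D9T+, 211 at D12S- and 91.9 at D16S-. H3K4me3 peaks touching it summed to a score of 13.8 at D3, 437 at D6T- and 379 at D9T-, and none was called at D0, D12S+, D16S+ or in iPSCs. Its high H3.3 at D9T- follows from the ranking, and its H3.3 peak at D6T- from the rule. H3K4me3 was high in the same Thy-1- intermediates, and the D12S- H3.3 score was equal to that of D9T-. The nearest peak of the 4 end lists was 4.55 kb away.

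The next, an intergenic peak of 8.59 kb at chr2:109696792-109705377, lay 29.9 kb upstream of Lin7c, a gene for a scaffold protein of cell junctions. Its H3.3 score was 36.9 at D3, 158 at D6T-, 191 at D9T-, 115 at D9T+, 210 at D12S-, 80.0 at D16S- and 11.1 at D12S+, and no peak was called at D16S+. H3K4me3 was weak there, 13.7 at D3 and 18.5 at D6T-, with none at D9T-. At both loci the D12S- score was at or above that of D9T-, and the D12S+ score was lower than either.

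In Taf1b, which encodes a subunit of the RNA polymerase I factor SL1, a peak of 8.40 kb (chr12:25219030-25227429) scored 157 at D6T-, 155 at D9T-, 153 at D12S- and 29.4 at D12S+. Syne2, the gene of the nuclear envelope protein nesprin-2, held a peak of 8.56 kb (chr12:77002970-77011534) that scored 97.4 at D6T-, 146 at D9T-, 222 at D12S-, 16.7 at D12S+ and 7.74 at D16S+. The Dclk2 peak (chr3:86673339-86679519), in a gene for a doublecortin-like kinase, scored 149, 136, 372, 11.8 and 6.93 in the same libraries. Intergenic peaks upstream of Egln3, a prolyl hydroxylase gene of the hypoxia response (chr12:55502308-55509165), and of Fmod, which encodes the matrix protein fibromodulin (chr1:135880846-135886615), scored 130 and 137 at D9T-, 216 and 194 at D12S-, and 45.3 and 11.6 at D12S+. A peak in 4930529M08Rik (chr2:145803467-145809747) scored 146 at D9T-, 95.5 at D12S- and 7.11 at D12S+.

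The remaining pair of the 10 stood apart. They lay at chr6:47632469-47633864 and chr6:47687854-47688479, between Ezh2 and Pdia4, were 1.40 and 0.625 kb long and scored 190 and 129 at D9T-. Input tags per kb were 13.6 and 16.9 times the median of D9T- peaks there, against 1.33 to 1.83 times at the other 8, and the first lay 0.0120 kb from an end-list peak. Input density over 3 times the median occurred at 8 transient peaks in all, and leaving such peaks out left 11254.

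**Figure D4:**
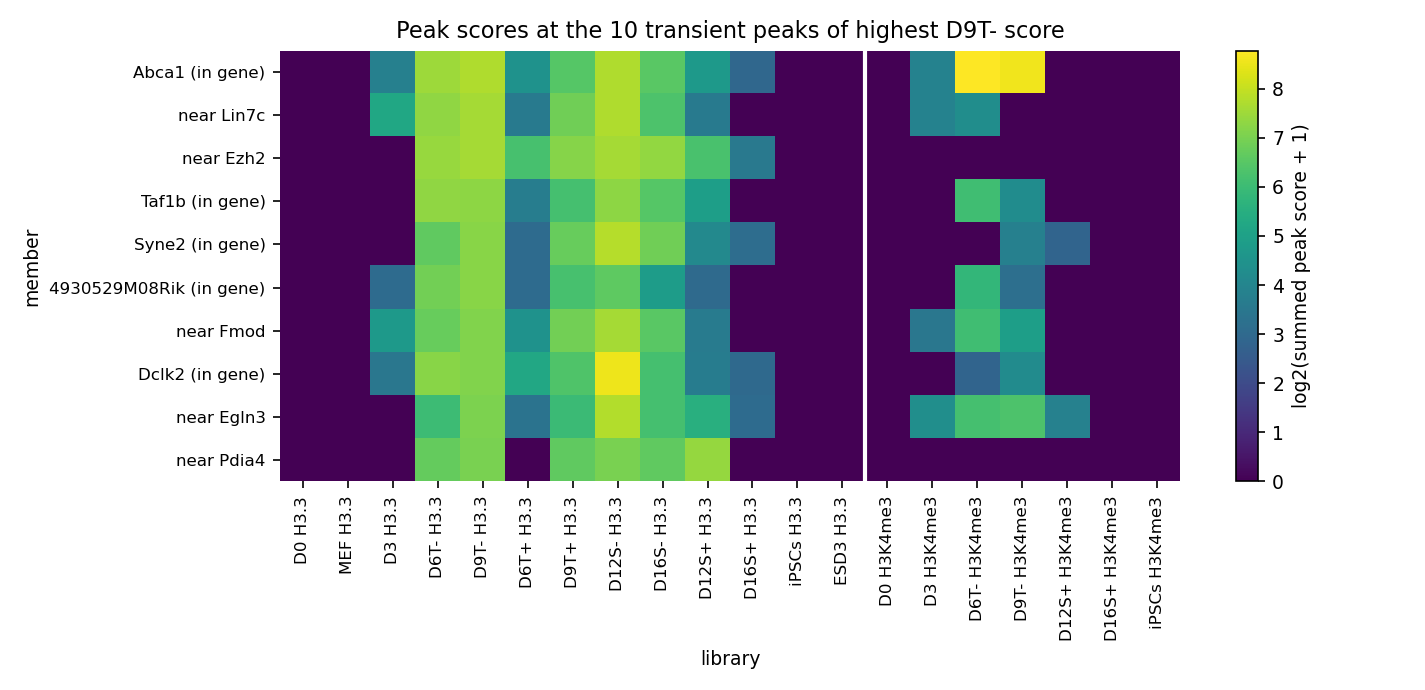
Heat map of log2(summed peak score + 1), where the score is tags per 10000000, for the 10 transient peaks of highest D9T- score (y axis) in 13 H3.3 and 7 H3K4me3 libraries (x axis). The D0, MEF, iPSCs and ESD3 columns of H3.3 are at 0 by the choice of peaks, the D12S- column spans scores of 95.5 to 372, and H3K4me3 is highest in Abca1.

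Of the 6 highest scores among the 194 peaks found in both SSEA-1+ libraries, 5 were named above: Abca1, the Ezh2 neighbour, Syne2, Dclk2 and the Egln3 neighbour. The sixth was a further Syne2 peak (chr12:76942635-76947984), 8.41 kb upstream of the nearest transcript start and within the gene, with an H3.3 score of 128 at D9T-, 176 at D12S-, 55.5 at D12S+ and 11.5 at D16S+. The D16S+ scores of these 6 thus spanned 6.67 to 11.5, near the tag limit of 6.93 per 10000000 in the header of that list.

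Ranked by D9T- H3K4me3 instead, the transient peaks were small H3.3 peaks under wide H3K4me3 domains. The first was at the promoter of Hoxa7, a homeobox gene of body patterning (chr6:52168705-52169571), with H3.3 scores of 11.1 at D6T- and 10.5 at D9T-. H3K4me3 peaks over it scored 181 at D0, 696 at D3, 2190 at D6T- and 935 at D9T-, the D6T- domain being 39.2 kb long, and none was called at D12S+, D16S+ or in iPSCs. At the 3′ end of Irx5, another homeobox gene (chr8:94885554-94886269), H3K4me3 scored 656 at D0, 530 at D3, 935 at D6T- and 728 at D9T-, and it was absent from the later lists. In Prrx1, a mesenchymal homeobox gene (chr1:165239197-165239697), it scored 719, 486, 844 and 537, then 129 at D12S+ and 12.3 at D16S+. Gm10748 (chr3:5213650-5214419) scored 760, 217, 1033 and 756, then 10.2 at D12S+ and 8.22 at D16S+. At these 4 genes the mark was thus called at D0, highest at D6T- and low or not called by D16S+.

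At 3 other genes of this ranking the mark was called at D6T- and D9T- and not at D0. Tiparp, an ADP-ribosyltransferase gene, held 2 transient peaks (chr3:65335217-65336916 and chr3:65338023-65340474) within a domain that scored 389 at D3, 698 at D6T- and 639 at D9T- and was not called at D0, although a D16S+ and an iPSCs peak (7.27 and 106) touched the first of them. A Ttc9c peak (chr19:8889898-8890398) had 539, 819 and 563 at these times and none at D0. Tshz1, a zinc finger gene, had H3K4me3 scores of 1045 at D6T- and 681 at D9T- at its peak and none in the other 5 libraries. At the remaining pair it was present from D0: the neighbouring Zadh2 peak had 750 at D0, 1045 at D6T- from the same domain as Tshz1, and 656 at D9T-, and Serbp1 (chr6:67218801-67220412) was marked in all 7 libraries, 227 at D12S+ and 410 in iPSCs included.

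Among the 607 peaks marked in D6T- and D9T- alone, the highest D9T- H3K4me3 scores after Tshz1 were in introns of Tmem64 (399), St3gal6 (295), D8Ertd82e (288), Sox13 (280) and Gm106 (260), a set picked after the values were seen. St3gal6 encodes a sialyltransferase, and its peak (chr16:58519241-58520752) scored 401 for H3K4me3 at D6T- and for H3.3 29.3 at D6T-, 19.9 at D9T-, 25.8 at D12S- and 16.1 at D16S-. No H3.3 peak was called there in D12S+ or D16S+. These 6 lay 3.31 to 6.96 kb downstream of the nearest transcript start.

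Transient peaks fell within 3748 of 22224 protein-coding genes (16.9%), and 10888 genes (49.0%) held any D9T- H3.3 peak. Of the 3748, 2240 held 1 member, 290 held 5 or more and 51 held 10 or more. Long genes held more of them: 4.55% of genes under 20 kb and 61.1% of those over 300 kb held a transient peak. Also as a share of D9T- peaks they went from 9.34% in genes under 20 kb to 26.6% in genes over 300 kb. In total 4081 transient peaks (36.2%) had another within 10 kb, and 75 runs held 5 or more. Such runs were not counted for all D9T- peaks.

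The longest run was over Ccdc141, which encodes a coiled-coil protein, with 32 transient peaks in 140 kb (chr2:76843422-76983074) among 42 D9T- peaks. H3.3 peaks took up 0.919% of the gene's 161 kb at D0, 2.50% at D3, 62.7% at D6T-, 58.9% at D9T-, 79.5% at D12S-, 30.4% at D16S-, 12.6% at D12S+, 2.30% at D16S+ and 0.311% in iPSCs. Of its 32 transient peaks 30 had a D12S- peak, 20 a D16S- peak, 9 a D12S+ peak and 2 a D16S+ peak. The gene was chosen by its number of transient peaks, so high coverage at D6T- and D9T- and low coverage at the ends follow in part from the choice. Among the reprogramming libraries the rule did not use, coverage was highest at D12S-. In the Thy-1+ fractions H3.3 peaks totalled 2.50 kb at D6T+ and 34.0 kb at D9T+.

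Gna14, a G protein alpha subunit gene, had a like course, with 26 transient peaks and H3.3 over 0.954% of its length at D0, 41.8% at D6T-, 57.1% at D9T-, 73.1% at D12S-, 14.9% at D12S+ and 0.686% in iPSCs. Cd109, whose product is a co-receptor that dampens TGF-beta signalling, had 17, and 8.16%, 73.6%, 63.0%, 84.8%, 15.4% and 2.63%. Camk2d, a calcium and calmodulin dependent kinase gene, had 21, but 21.6% of it was covered at D0 and 42.2% at D3, before 57.0% at D9T-. In Mllt3, which encodes the AF9 subunit of the super elongation complex, 29 transient peaks went with 3.67% at D0, 37.5% at D6T- and 20.2% at D9T-. Syne2 had 22 and went from 3.62% to 31.6% at D9T- and 5.36% in iPSCs.

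In the other 4 of the 10 genes with most transient peaks, H3.3 covered a small part even at D9T-. Zbtb20, a zinc finger repressor gene of 767 kb, held 30 transient peaks with 11.7% covered, Exoc4, an exocyst gene, 18 with 5.81%, Rasal2, a Ras GTPase-activating gene, 17 with 12.3%, and Pde4d, a cAMP phosphodiesterase gene of 1506 kb, 17 with 4.58%. In all 10 genes coverage was higher at D12S- than at D12S+. This order was general: of all D9T- peaks 39.4% had a peak in D12S- alone and 2.74% in D12S+ alone. The D12S- list was also longer, with 87536 peaks against 45922. H3K4me3 at the transient peaks of the 10 genes varied by gene. At D6T- it was at 3 of the 32 in Ccdc141, none of the 17 in Cd109, 10 of the 30 in Zbtb20 and 3 of the 22 in Syne2. At D9T- these numbers were 3, 0, 10 and 9. Over all transient peaks the shares were 26.0% and 17.6%.

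**Figure D5:**
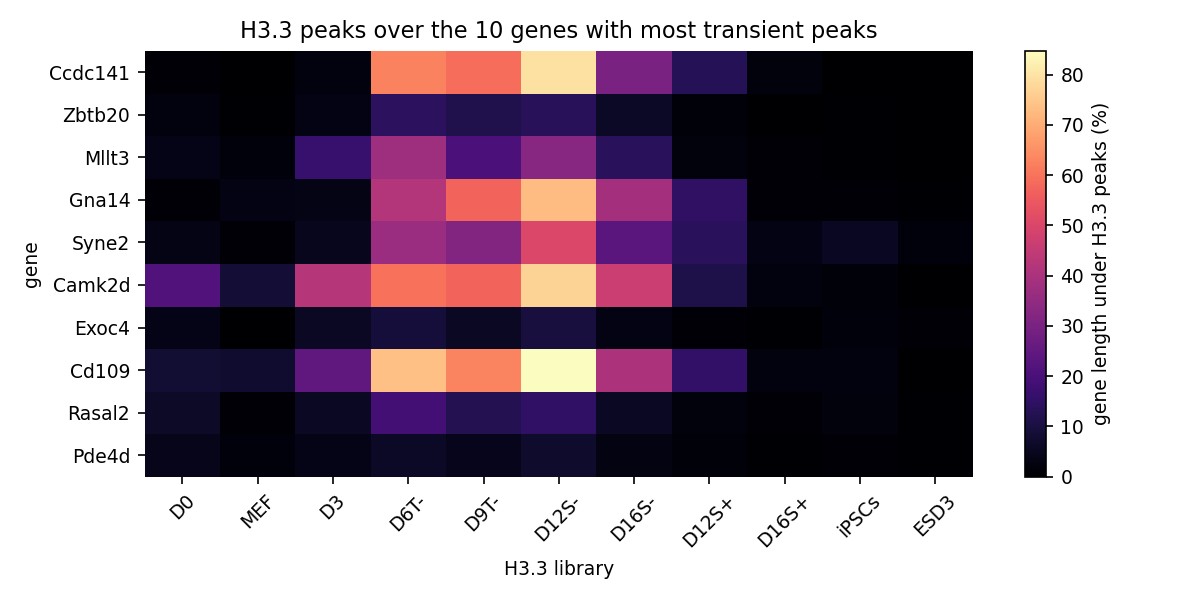
Heat map of the percent of each gene's length under H3.3 peaks, for the 10 protein-coding genes with most transient peaks (y axis) in 11 H3.3 libraries (x axis). Ccdc141, Gna14, Camk2d and Cd109 are covered at 57.0% or more of their length at D9T- and at 73.1% or more at D12S-. The D0, MEF, D6T-, D9T-, iPSCs and ESD3 columns were used in the choice of peaks.

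H3K36me3 was not used to choose these genes, but at each time-point it was called against the same input library as H3.3. Both are found over transcribed gene bodies, so H3K36me3 is not independent of the choice. Peaks of this mark totalled 1.20 kb in Ccdc141 at D0, 0.811 kb at D3, 14.4 kb at D6T-, 120 kb at D9T-, 8.75 kb at D12S+, 8.74 kb at D16S+ and 0 in iPSCs. In Cd109 they totalled 6.62 kb at D0, 83.3 kb at D9T- and 0 in iPSCs, in Gna14 1.64, 52.7 and 0 kb, and in Syne2 21.8, 213 and 2.00 kb. In these 4 genes the total was highest at D9T-, but that library had 42.38% of its tags within peaks against 31.34% at D0, 7.50% at D6T- and 1.07% at D12S+, and the part of this in the difference was not tested. In Camk2d the mark covered 41.4 kb at D0 and 60.7 kb at D9T-, in Exoc4 80.7 and 96.6 kb, and in Pde4d 56.5 and 32.9 kb.

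Lists of genes with known roles were then read against the 16.9% of all genes, whose median length was 15.5 kb. Of 43 pluripotency genes 5 held a transient peak (11.6%, 5.07 to 24.5%), namely Fbxo15, Terf1, Jarid2, Tet2 and Sall1. Fibroblast and mesenchymal genes had 7 of 46 (15.2%), with Ddr2, Tgfbr2, Zeb2, Mmp2, Meox2 and Prrx1 at the highest summed scores and Zeb1 the seventh. The collagen receptor gene Ddr2 summed to 80.6 over 3 transient peaks and the TGF-beta receptor gene Tgfbr2 to 67.4 over 3, but these were 3 of 19 and 3 of 21 D9T- peaks in the genes. Both intervals include the background share.

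Epithelial junction genes had 9 of 37 (24.3%, 13.4 to 40.1%), among them Pkp1, Tjp1, Grhl1, Dsp and Pkp2, which encode desmosome and tight junction proteins and a grainyhead factor, each with 1 to 3. Keratin and epidermal genes had 1 of 31, Trp63. Hematopoietic genes had 3 of 29 (Vav1, Myb and Fli1), trophoblast genes 1 of 18 (Tead4) and primitive endoderm genes 4 of 21 (Lama1, Col4a1, Cubn and Lamc1). Muscle genes had 5 of 20, with Ryr2, a calcium release channel, at a summed score of 96.3 over 3. Inflammation and interferon genes had 3 of 36 and housekeeping genes 3 of 35. AP-1 and immediate early genes had 0 of 21, which allows a share of up to 15.5%. These genes are short, with a median of 4.98 kb, and 13 of them held a D9T- peak.

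The 2 lists whose interval lay above the background share were of long genes. Neural genes had 12 of 32 (37.5%, 22.9 to 54.7%), among them the synaptic adhesion gene Nrxn3, in which 6 of 7 D9T- peaks were transient, Grin2b, Robo1 and Syt1. Chromatin regulators and H3.3 chaperones had 17 of 34 (50.0%, 34.1 to 65.9%), led by Kdm6a, Kdm5a, Setd2, Hdac4, Chd1 and Ubn2, and Hira, the chaperone that deposits H3.3, held 3 of 9. Their median gene lengths were 73.2 and 75.2 kb, and of all genes of 50 to 100 kb 36.7% held a transient peak. As a share of the D9T- peaks within the genes, transient peaks made up 28.3% in the neural list and 13.1% in the chromatin list, compared with 16.6% over all genes.

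Per chromosome, transient peaks made up 12.6 to 19.8% of D9T- peaks on the autosomes and 29.3% on X (239 of 815, 26.3 to 32.5%). On autosomes alone 11010 remained.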

How the data were processed

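H3.3, H3K4me3 and H3K36me3 ChIP-seq peaks of 46 samples were read from 30 lists, 1 per library (H3.3, 16 lists; H3K4me3 and H3K36me3, 7 each). The 16 input samples were not analysed on their own. Per the study's methods, reads were mapped to mm9 with STAR, reads with more than 2 mismatches or several positions were dropped, and HOMER called peaks per library in its histone style against the matched input. Versions were not given in the sources used here. Per the file headers, peaks needed a fold over input of 2 (H3.3) or 4 (other marks) and a p-value of 0.0001, and parts within 1000 bp were joined.

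The deposited lists give each peak a signal, the normalized tag count per 10000000 tags, which is called its score here, together with the fold (ratio) of ChIP over input and a p-value from HOMER. The p-values compare 2 libraries and were not used. H3.3 libraries had 18.7 to 91.8 times 1000000 tags. A region near the tag limit of a shallow library may not be listed, so absence from a list depends on depth.

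Intervals were compared with Python 3.11.15, NumPy 2.4.6, pandas 2.3.3 and matplotlib 3.10.9, in scripts that were tested on simulated data. An overlap of 1 bp counted. Midpoints were annotated with GENCODE vM1 (22224 genes that code for protein; mm9 coordinates), without transcripts spanning over 2.5 Mb. Motifs were searched in 300 bp around the midpoint. With 1 library per group no test was possible. Each share stands beside that of all D9T- peaks, with a 95% Wilson interval for counting error.

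Members and gene lists were chosen with earlier results of these data known. Named were the 10 peaks of highest D9T- H3.3 score, the 10 genes with most members, the 10 peaks of highest D9T- H3K4me3 score among those marked at D6T- and D9T-, up to 6 genes per list by summed score, and the 6 highest-scoring peaks found in D12S+ and D16S+. A few genes that this rule names are not reported here. Alternatives varied the overlap, distance, list length, fold, chromosomes and libraries of the rule.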

Additional observations from a re-analysis of the deposited data

How the results depend on the processing

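No paired analysis was possible because each group has 1 library, and no library could be left out of a group for the same reason. Of 63 alternative values, 27 moved by less than their counting interval or, for counts, by less than 1.5 times. Transient peaks were below all D9T- peaks in 54 of 59 shares. In the following, shares are of transient peaks, and the causes of the shifts were not tested. Values in brackets are the same shares over all D9T- peaks, given where the setting changed them. When the D6T- peak had to cover 0.5 of the D9T- peak, 63.9% were within genes, 28.1% had H3K4me3 at D6T-, 16.1% a D12S+ peak and 78.9% a peak in an unsuccessful fraction. With no end-list peak within 1 kb, 1.88% were at promoters, 61.2% within genes, 28.8% and 18.7% had H3K4me3 at D6T- and D9T-, 3.73% a D16S+ peak and 75.7% a peak in an unsuccessful fraction. With equal numbers of H3.3 peaks per library, 6417 met the rule, 2.79% (9.23%) were at promoters and 66.9% (62.7%) within genes. Of these, 42.2% (50.6%) and 29.6% (44.1%) had H3K4me3 at D6T- and D9T-. A D12S+ peak was at 25.9% (47.6%), a D16S+ peak at 10.7% (34.0%) and a peak in an unsuccessful fraction at 81.0% (85.3%). At a fold of at least 4, 1258 met the rule, and 25.2% (24.7%) had H3K4me3 at D6T-. At D9T- 18.4% had it, a lower share than among all such D9T- peaks. Of the 1258, 14.6% (27.2%) had a D12S+ peak, 3.74% (16.4%) a D16S+ peak and 72.3% (74.1%) a peak in an unsuccessful fraction. Without peaks that overlap a D3 peak, 63.3% were within genes, 14.0% had a D12S+ peak and 73.7% a peak in an unsuccessful fraction. Counting any overlap with a gene gave 66.2% (68.2%) within genes. Requiring H3K4me3 over 0.5 of the peak gave 14.9% (20.5%) at D6T- and 9.43% (17.3%) at D9T-, and equal H3K4me3 lists at these times gave 22.7% (31.5%) at D6T-. Chosen after seeing the data were equal numbers in all 7 H3K4me3 lists, with 9.07% (22.0%) at D6T- and 7.30% (20.4%) at D9T-, the restriction to peaks over 5 kb from a transcript start, with 23.2% (22.9%) and 14.4% (18.3%), and the count without D12S-, with 57.1% (68.0%) in an unsuccessful fraction. Without D0 in the rule 16611 peaks met it, without iPSCs 14268, without ESD3 12163 and without MEF 12024.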

Other observations

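H3K36me3, the mark of transcribed gene bodies, overlapped 21.9% of transient peaks at D0, 14.6% at D3, 9.44% at D6T-, 24.9% at D9T-, 2.36% at D12S+, 2.81% at D16S+ and 4.25% in iPSCs. The shares over all D9T- peaks were 26.6%, 19.0%, 13.1%, 28.4%, 3.86%, 4.30% and 9.05%. Over the whole set the mark was therefore nearly as frequent at D0 as at D9T-, unlike over Ccdc141 and Gna14. Of the 3748 genes with a transient peak, 555 held no D9T- H3.3 peak of another kind.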
